A study of Mus musculus with 10 samples.

Results

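Genomic imprinting silences 1 parental copy of a gene according to the parent it came from. The 32 imprinted genes described here were chosen by name from the 32064 genes other than pseudogenes in the GENCODE M1 annotation of the mouse genome (mm9). The rule uses no measured value, but the choice was made with earlier results of these data known. The 32 genes lie in 17 domains on 11 chromosomes, and 16 of the 32 are on chromosome 7. By their known behaviour 20 are expressed from the paternal copy, 11 from the maternal copy, and Gnas uses different parental copies at different promoters. Imprints are laid down as DNA methylation in the egg or sperm, at differentially methylated regions (DMRs) that stay methylated on 1 parental copy after fertilisation. At most germline DMRs the methylated copy comes from the mother and the unmethylated paternal copy carries an active promoter. In several domains a long non-coding RNA made from that copy silences neighbouring genes, and Polycomb complexes, which place H3K27me3 and H2AK119ub, help to hold the silent copy.

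The genes were examined in sorted mCherry+ mesodermal cells from day 4 embryoid bodies, clumps of mouse embryonic stem (ES) cells left to differentiate. WT cells carried an mCherry reporter inserted on 1 allele of Scl, which encodes the blood-specifying transcription factor SCL (also called TAL1). Delta cells (Scl d/d in the labels) were made from that reporter line and carried a deletion of the DNA-binding (bHLH) domain of SCL on both alleles. Both lines descend from J1 ES cells and grew from single sorted cells, the labels give the strain as C57Bl/6 X Sv with a number after Sv that differs between samples, from Sv129 to Sv136, and chromatin from both genotypes was mixed with Drosophila S2 cells as a spike-in. In each genotype 4 histone marks were profiled by chromatin immunoprecipitation and sequencing (ChIP-Rx). H3K4me3 marks the start sites of active or poised genes, H3K27ac marks active promoters and enhancers, and H3K27me3 and H2AK119ub are the Polycomb marks. Each mark was profiled in a single library of each genotype, so the differences below have no replicate check and were not tested, and genotype, clone and library cannot be told apart. What the deposited lists hold is broad peaks, regions enriched over background in 1 library, and not reads. The lists therefore show neither which parental copy carried a mark nor whether fewer cells or less mark per cell made a peak shorter.

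The 8 lists held between 2388 peaks (H2AK119ub in Delta) and 16038 peaks (H3K4me3 in WT), and every listed peak had a q-value of at most 0.0500. The H2AK119ub list of WT was the longer, with 4922 peaks, and the H3K27ac list of WT was the shorter, with 4571 peaks against 5269 in Delta. The H3K27me3 lists were near in size, at 11345 and 10881 peaks. From spike-in scaled signal and western blots of these cells, the paper reported globally lower H3K27me3 and H2AK119ub in Delta. The peak calls were not scaled by the spike-in, so the sizes of the lists do not measure such a change. Markers of the sorted population were split by genotype for H3K27ac. Of 8 blood and endothelial mesoderm genes, 4 had an H3K27ac peak at a start site in WT and 0 in Delta. The 4 were Tal1, Lmo2, Fli1 and Gata2. Of all genes, 15.9% (WT) and 18.2% (Delta) had such a peak, and 2.76% had one in WT alone. The presence of the other marks differed little at these 8 genes. H3K4me3 was listed at 7 in WT and 6 in Delta, H3K27me3 at 5 in each and H2AK119ub at 1 in each. The summed H3K27me3 length was greater in Delta at all 5. It was 1800 and 5766 bp at Tal1, 306 and 1494 bp at Kdr, and 850 and 1272 bp at Lmo2. At Fli1 it was 6349 and 11206 bp, and at Gata2 7106 and 15273 bp. Over 7409 genes with the mark in both genotypes, the median log2 ratio of Delta over WT was 0.01. No pluripotency marker of 6 had an H3K27ac peak in WT, and 1 (Klf4) had one in Delta. No neural or endoderm marker had one in either genotype. In lists this short, 0 or 1 is near the all-gene shares. The part of these differences between the sorted cells in the results below was not tested.

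The promoters that carry the findings below are shown here with their coordinates in NCBIM37 (mm9). Nnat was the gene whose H3K4me3 and H3K27me3 were listed in WT and not in Delta. Snrpn, Mest, Plagl1 and Peg3 have promoters in maternally methylated germline DMRs, where H3K4me3 ranked lower in the Delta list. Kcnq1ot1 is the non-coding RNA of the Kcnq1 domain, and Ascl2 is a Polycomb-marked gene of that domain shown for contrast. Each stretch ends at the base before a start site and reads 5′ to 3′ on the gene's strand. It has 200 bases, or 300 for Nnat. Capitals mark TGCCGC or its reverse complement GCGGCA, the hexamer that the zinc finger protein ZFP57 binds when methylated to keep an imprint. The stretches lie at chr2:157385514-157385813 (plus strand), chr7:67150043-67150242 (minus), chr6:30687850-30688049 (plus), chr10:12810297-12810496 (plus), chr7:6683133-6683332 (minus), chr7:150482453-150482652 (minus) and chr7:150155170-150155369 (minus). The Nnat stretch overlaps an exon of a non-coding Blcap transcript on the other strand, and the other 6 overlap no annotated exon.
Nnat: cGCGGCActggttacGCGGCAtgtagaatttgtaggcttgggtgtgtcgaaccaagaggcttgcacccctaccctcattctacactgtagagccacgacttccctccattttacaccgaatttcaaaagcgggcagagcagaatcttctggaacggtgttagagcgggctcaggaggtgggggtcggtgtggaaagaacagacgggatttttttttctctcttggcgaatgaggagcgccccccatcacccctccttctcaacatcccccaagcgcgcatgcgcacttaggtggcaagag
Snrpn: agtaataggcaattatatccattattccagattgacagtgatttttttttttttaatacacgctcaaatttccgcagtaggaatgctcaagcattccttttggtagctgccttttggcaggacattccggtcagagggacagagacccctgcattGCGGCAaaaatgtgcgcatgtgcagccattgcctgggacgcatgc
Mest: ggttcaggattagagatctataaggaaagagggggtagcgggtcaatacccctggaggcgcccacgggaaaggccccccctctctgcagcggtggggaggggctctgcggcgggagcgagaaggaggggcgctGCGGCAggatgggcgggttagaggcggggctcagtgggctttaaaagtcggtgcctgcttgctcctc
Plagl1: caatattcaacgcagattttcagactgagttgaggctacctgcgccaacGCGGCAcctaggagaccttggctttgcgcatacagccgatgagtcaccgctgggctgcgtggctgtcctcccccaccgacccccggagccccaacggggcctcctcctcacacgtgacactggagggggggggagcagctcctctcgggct
Peg3: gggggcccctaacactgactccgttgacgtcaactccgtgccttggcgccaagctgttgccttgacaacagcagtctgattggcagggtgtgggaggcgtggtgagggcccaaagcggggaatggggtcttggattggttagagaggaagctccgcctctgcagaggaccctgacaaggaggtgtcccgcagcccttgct
Kcnq1ot1: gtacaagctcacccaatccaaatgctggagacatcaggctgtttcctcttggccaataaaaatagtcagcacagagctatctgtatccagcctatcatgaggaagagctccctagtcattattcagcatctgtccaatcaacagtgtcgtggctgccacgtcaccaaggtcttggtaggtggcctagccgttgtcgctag
Ascl2: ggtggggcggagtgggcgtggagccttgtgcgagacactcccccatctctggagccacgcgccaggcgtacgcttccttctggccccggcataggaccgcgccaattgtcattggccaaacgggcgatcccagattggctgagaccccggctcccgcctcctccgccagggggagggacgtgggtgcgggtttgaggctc

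The capitals show 2 copies of the hexamer before Nnat and 1 each before Snrpn, Mest and Plagl1. None stands in the stretches of Peg3, Kcnq1ot1 and Ascl2. Over 1000 bases centred on the start of the gene record the hexamer occurred on either strand at 13 of the 32 imprinted genes (40.6%) and at 28.5% of all genes. At genes with a CpG-rich start site, the share was 52.6% of 19 imprinted genes and 56.7% of 10892 genes. Nnat held 6 copies in that window, Nap1l5 held 5, Plagl1 held 4 and Peg3 held 3. These are matches of letters in the reference genome and not measured binding. In RefSeq promoters of 300 bases (GRCm38.p6), 27 of the 32 genes were found, and 11 of their 43 promoters (25.6%) held the hexamer against 11.6% of all 32851 promoters.

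At their start sites the imprinted genes carried H3K4me3 and H3K27me3 together more often than genes at large, and so in both genotypes. A gene was counted when a peak lay within 2500 bp of any of its annotated transcription start sites. H3K4me3 was listed at 30 of 32 imprinted genes in WT and 28 in Delta, against 48.7% and 48.3% of all genes, and 28 had it in both genotypes (47.6%). H3K27me3 was listed at 22 in WT and 21 in Delta, against 28.7% and 27%, and 19 had it in both (23.1%). Both marks were at 21 of 32 imprinted genes in WT and 20 in Delta, or 65.6% and 62.5%, where 26.2% and 24.5% of all genes had both. Of protein-coding genes, as 30 of the 32 are, 32.7% and 30.5% had both. A gene with more annotated start sites, such as Gnas with 16, had more chances of a call. No background was matched for the number of start sites. The pair was in both genotypes at 18 genes (20.6% of all genes), in WT alone at Cd81, Peg3 and Nnat (5.59%) and in Delta alone at Mest and Snrpn (3.90%). In a cell with 1 active and 1 silent copy of a gene, the 2 marks could lie on different copies, and these lists do not separate that from both marks on 1 copy.

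H2AK119ub was also frequent, at 10 imprinted genes in WT and 7 in Delta, where 7.92% and 4.35% of all genes had it, and the 7 had it in both (3.66%). H3K27ac was not frequent, at 5 genes in WT and 7 in Delta beside 15.9% and 18.2% of all genes, with 4 in both (13.1%). H3K27ac and H3K27me3 were both listed in WT at Cd81, Peg3, Gnas and Zdbf2 (8.49% of all genes). H3K4me3 without H3K27me3 was at 9 imprinted genes in WT and 8 in Delta (22.5% and 23.7%), among them H19, Tssc4, Zim1, Peg10, Sgce and Impact in both genotypes. Part of the contrast with all genes went with base composition. The outermost start sites of 19 imprinted genes (59.4%) were CpG-rich by the criteria used (observed over expected CpG of at least 0.6 and GC of at least 50%), against 34.0% of all genes. Among genes with such start sites H3K27me3 was listed at 16 of 19 imprinted genes in WT and 13 in Delta, against 56.0% and 52.0%, and H3K4me3 was listed at 19 and 18 of 19, against 97.5% and 97.3%. H2AK119ub was at 7 and 4 of these 19, against 13.6% and 8.05%. H3K27ac was at 4 and 5 of the 19 (21.1% and 26.3%), below the 39.2% and 44.3% of all genes with such start sites. The 13 remaining imprinted genes had outermost start sites below the criteria. H3K27me3 was listed at 6 of them in WT and 8 in Delta, against 14.6% and 14.2% of all genes below the criteria. Only the outermost start site was scored for base composition, while peaks were counted at any start site of a gene. At Mest the GC share was 44.2% at the outermost start site and 65.0% in the stretch printed above. The contrast for these 13 genes was therefore not resolved by start site.

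**Figure D1:**
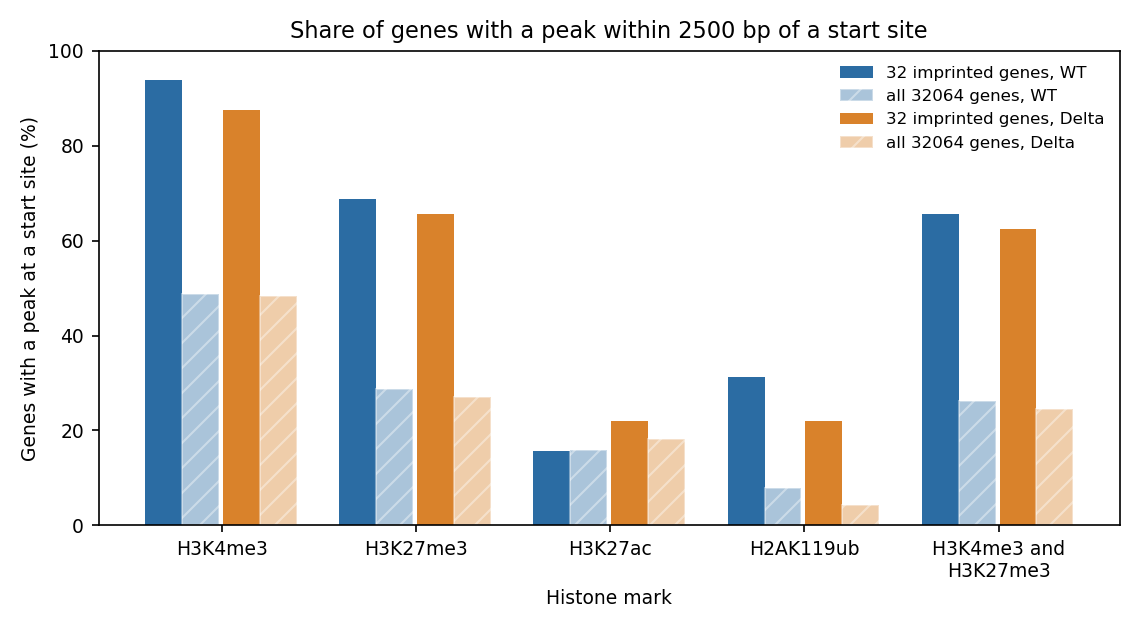
Share of the 32 imprinted genes (solid bars) and of all 32064 genes (hatched bars) with a peak within 2500 bp of a start site, in percent, for each mark and for H3K4me3 with H3K27me3, in WT (blue) and Delta (orange). Each bar comes from 1 library and has no error bar; the solid bars stand above the hatched bars for H3K4me3, H3K27me3, H2AK119ub and the pair, and near them for H3K27ac.

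Counts alone hide which genes differed. Of the 32 genes, 21 had the same set of marks in WT and Delta and 11 (34.4%) differed in at least 1 mark. Of all 32064 genes, 6754 (21.1%) differed. That share counts in 15342 genes (47.8%) with no peak of any mark in either genotype, which could not differ. The higher share of the imprinted genes is therefore no sign that they differed more often than other genes with a peak. The 11 were Kcnq1, Cd81, Tssc4, Peg3, Mest, Snrpn, Meg3, Nnat, Gnas, Igf2r and Slc38a4. Usp29, a paternally expressed ubiquitin protease gene next to Peg3, was the gene of the 32 with no peak of any mark, a state shared by 47.8% of all genes. Its GENCODE M1 record holds 2610 bp and starts 231 kb from the start of Peg3. The RefSeq promoter of Usp29 matched NCBIM37 exactly at chr7:6683044-6683343, inside the Peg3 H3K4me3 peak, so at that start site Usp29 shares the values given for Peg3 below.

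**Figure D2:**
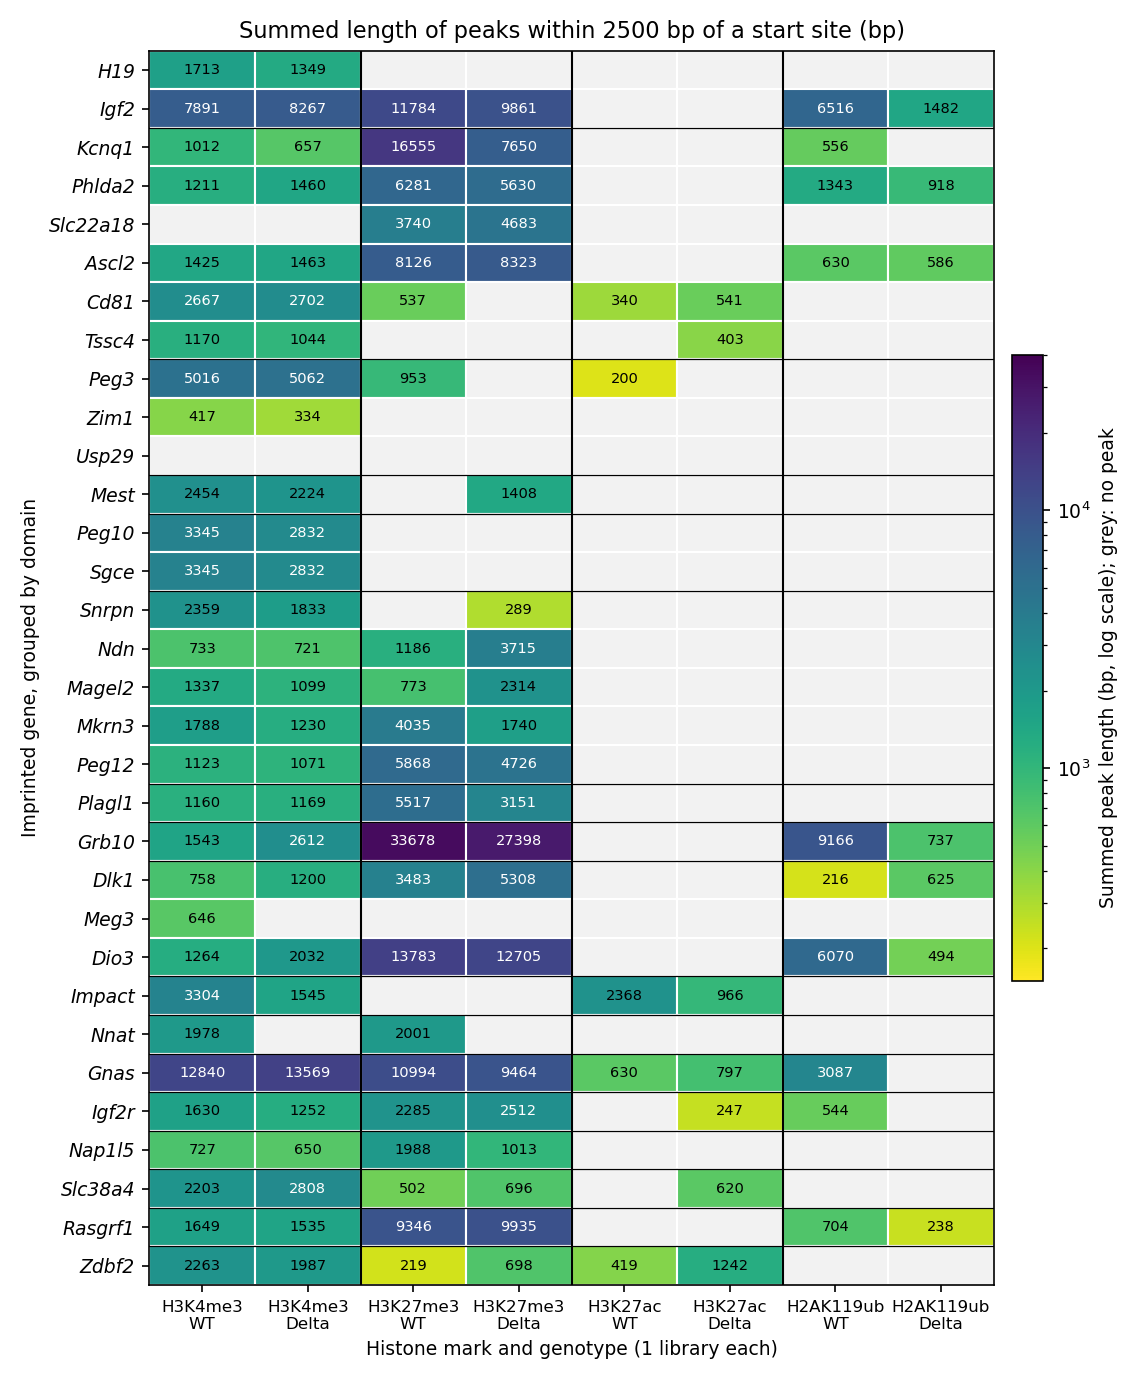
Summed length in bp of the peaks within 2500 bp of a start site, printed and coloured on a log scale, for 32 imprinted genes (rows, grouped by domain) and 8 peak lists (columns, 1 library each). Grey cells had no peak; H3K4me3 fills 30 rows in WT and 28 in Delta, and the cells of Nnat and Meg3 are empty in Delta.

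Nnat had H3K4me3 and H3K27me3 in WT and no listed mark in Delta. Nnat encodes neuronatin, a small membrane protein, and lies within an intron of Blcap, a gene that is itself imprinted in brain. In WT an H3K4me3 peak of 1978 bp (fold enrichment over background 5.92) and an H3K27me3 peak of 2001 bp (fold 6.83) reached its start sites. In Delta neither mark was listed within 2500 bp. The nearest Delta H3K4me3 peak was 4.55 kb away at the main Blcap promoter, and the nearest Delta H3K27me3 peak was 103 kb away. Having both marks in WT and neither in Delta was the state of 7 of 32064 genes (0.0218%), and 1 of the 7 was a miRNA record reached by the same peaks. Of 5519 genes whose WT H3K4me3 was at least as long as at Nnat, 14 (0.254%) had none in Delta.

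Blcap kept its own promoter peak. The H3K4me3 there measured 1892 bp in WT (fold 9.41) and 1641 bp in Delta (fold 6.97), and H3K27ac was listed there in both genotypes (769 and 362 bp). Neither Nnat nor Blcap had H2AK119ub. The absence of H3K27me3 at Nnat in Delta held with windows of 1000 and 5000 bp, with peaks of −log10 q of at least 3 or a fold of at least 4, and with the outermost start site alone. That of H3K4me3 held in 4 of those 5 settings, the exception being the 5000 bp window, which takes in the Blcap peak.

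At 8 other genes with promoters in maternally methylated germline DMRs an H3K4me3 peak was listed in both genotypes, and each ranked lower in Delta. The group as assigned here has 10 genes, all expressed from the paternal copy. They are Nnat, Usp29, Snrpn (a splicing protein), Mest (a hydrolase-like protein), Peg3 (a zinc finger protein), Peg10 (a retrotransposon-derived gene needed in placenta), Sgce (a sarcoglycan), Plagl1 (a zinc finger transcription factor), Impact (a regulator of translation) and Nap1l5 (a nucleosome assembly protein). The fold enrichment of the strongest H3K4me3 peak at each gene was ranked within its own list, so that 100 would be the highest percentile. All 8 genes of the group with a peak in both genotypes had a lower percentile in Delta, with a median change of -19.8 points. Over all genes with a peak in both, 54.8% were lower and the median change was -1.64 points. This ranking was added after the values had been seen, Peg10 and Sgce share 1 peak, and so the 8 genes stand for 7 peaks.

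The Snrpn peak, with the largest change of the 8, went from the 92.5th percentile in WT (fold 10.30) to the 43.7th in Delta (fold 5.64). Mest went from 44.1 (fold 5.95) to 22.7 (fold 4.44), and Peg3 from 53.0 (fold 6.66) to 32.9 (fold 5.02). Impact went from 48.9 (fold 6.33) to 29.0 (fold 4.79), and the peak shared by Peg10 and Sgce from 41.3 (fold 5.72) to 21.7 (fold 4.38). The changes were small at Plagl1 (36.6 to 30.6) and Nap1l5 (33.1 to 31.4). The lengths of most of these peaks were within 1.5-fold. At Peg3 the H3K4me3 peak measured 5016 bp (WT) and 5062 bp (Delta), at Mest 2454 and 2224 bp, at Snrpn 2359 and 1833 bp, and at Peg10 and Sgce 3345 and 2832 bp. Impact was the exception, with 3304 bp (WT) and 1545 bp (Delta).

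The same ranking showed no common direction at the remaining genes. Of 16 genes assigned to neither DMR group and with a peak in both genotypes, 6 were lower in Delta and the median change was 0.929 points. No group was made for DMRs methylated on the paternal copy, so genes near such DMRs are among the 16. The 16 also include Slc38a4, another paternally expressed gene, at 82.1 in both lists. Had Slc38a4 been placed in the maternally methylated group, not every gene of that group would have ranked lower. That all 8 were lower therefore depends on the assignment used here. Phlda2 rose from percentile 12.3 to 53.1 (folds 3.69 and 6.19) and Tssc4 from 61.5 to 98.4 (folds 7.35 and 10.24). Magel2 and Mkrn3, which lie beyond Snrpn in the same domain, went from 45.0 to 26.3 and from 88.8 to 72.5. In 4 further genes a germline DMR lies at another promoter or within the gene, and of these Igf2r went from 53.3 to 41.7, Kcnq1 from 20.4 to 15.8, Gnas was at 48.3 and 48.2, and Grb10 went from 22.0 to 35.0.

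**Figure D3:**
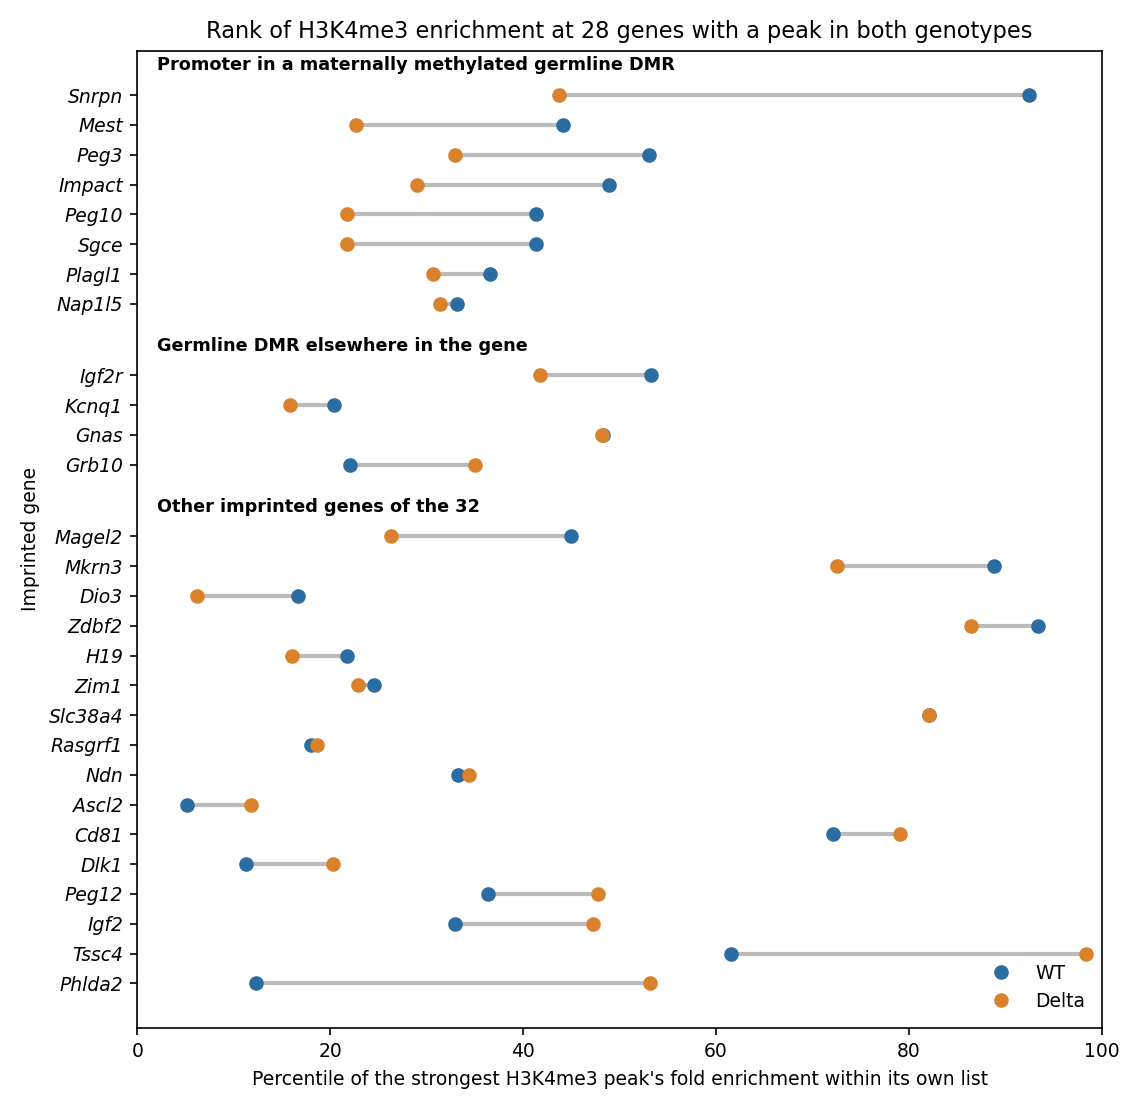
Percentile of the fold enrichment of the strongest H3K4me3 peak within its own list (x axis, 0 to 100) in WT (blue) and Delta (orange) for the 28 imprinted genes with a peak in both genotypes, in 3 groups by their DMR. Each point is 1 library; all 8 genes of the top group lie to the left in Delta, while the bottom group moves both ways, from Magel2 (45.0 to 26.3) to Phlda2 (12.3 to 53.1).

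Start sites outside the 32 genes that are known to lie in maternally methylated germline DMRs gave further values, looked up after the pattern had been seen. Kcnq1ot1, whose RefSeq promoter matched NCBIM37 exactly at chr7:150482403-150482702, went from percentile 98.7 (fold 12.31) to 53.7 (fold 6.22). Zrsr1, a splicing factor gene, went from 75.6 to 56.3, and Airn, the non-coding RNA that silences Igf2r, from 69.1 to 53.5. At Mcts2 (68.1 and 69.4) and Nespas, the antisense RNA of the Gnas domain (48.3 and 48.2), the rank was near the same in both lists. The peak ranked for Nespas is the same as that ranked for Gnas above. At Kcnq1ot1 an H3K27ac peak of 715 bp and an H3K27me3 peak of 1123 bp were listed in WT, with neither in Delta. Lower ranks were not limited to start sites known to lie in such DMRs. Of 33 further imprinted genes with H3K4me3 in both genotypes, 21 were lower in Delta, with a median change of -1.92 points, and among them H13 went from 89.9 to 45.7, Ampd3 from 61.3 to 18.2, Cobl from 82.9 to 54.8, Copg2 from 64.6 to 37.0 and Blcap from 86.1 to 67.8. Zrsr1, together with its neighbour Commd1 that has the same peaks in reach, had H3K27ac (1412 bp) and H3K27me3 (1094 bp) in WT and neither in Delta.

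H3K27me3 was listed in WT alone at 3 imprinted genes and in Delta alone at 2, where 5.56% and 3.93% of all genes were. In WT alone it was at Nnat, at Peg3 (953 bp, fold 2.98) and at Cd81 (537 bp, fold 3.07), which encodes a tetraspanin at the cell surface. In Delta alone it was at Mest (1408 bp, fold 3.24) and Snrpn (289 bp, fold 3.23). The Mest peak lay at an upstream start site of the gene and did not touch the promoter printed above, while that of Snrpn lay within the H3K4me3 peak. Apart from that at Nnat, these peaks were weak. None of those at Peg3, Cd81, Mest and Snrpn reached a −log10 q of 3 or a fold of 4, so each of these 4 differences was gone in the stricter lists.

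At the 19 genes with H3K27me3 in both genotypes the length of the domain was used as the measure, summed over the peaks at a gene. The median log2 ratio of Delta over WT was -0.12, beside 0.01 over 7409 genes. Lengths at least 1.5-fold longer in Delta were found at 4 of 19 genes (13.3% of all genes) and at least 1.5-fold shorter at 4 (14.8%). The longer domains included a pair of neighbours, Ndn (1186 bp against 3715 bp in Delta) and Magel2 (773 and 2314 bp), both of the MAGE family and both in the Snrpn domain. Mkrn3, a ring finger gene between Magel2 and Peg12, had less in Delta (4035 and 1740 bp). The Mkrn3 log2 ratio of -1.21 sums 2 WT peaks, of 2335 bp at the start site and 1700 bp at 1774 bp from it. With a 1000 bp window, which leaves out the farther peak, the ratio was -0.42, and with peaks of −log10 q of at least 3, which drop the nearer one, it was 0.03, so neither reached 1.5-fold.

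Dlk1, a Notch-related growth regulator, had 3483 bp (WT) and 5308 bp (Delta), the difference coming largely from an added Delta peak of 1208 bp. With peaks of −log10 q of at least 3 the Dlk1 log2 ratio was 0.24 in place of 0.61 and no longer 1.5-fold. Zdbf2 (219 and 698 bp) was the fourth of the longer genes, with peaks too weak to stay in the list at a −log10 q of 3. On the shorter side were Kcnq1, a potassium channel (16555 and 7650 bp), Plagl1 (5517 and 3151 bp) and Nap1l5 (1988 and 1013 bp). Much of the Kcnq1 difference lay outside the window, since for the part inside it the log2 ratio was -0.38 in place of -1.11, less than 1.5-fold. The longest domain of the 32 genes was at Grb10, which encodes an adaptor that restrains insulin and growth signalling, at 33678 bp (WT) and 27398 bp (Delta). Dio3, the enzyme that inactivates thyroid hormone, had 13783 and 12705 bp, and Igf2, the growth factor, had 11784 and 9861 bp. These 3 were within 1.5-fold. Ranked by fold within its list, H3K27me3 was lower in Delta at 14 of 19 imprinted genes (54.9% of all genes), with a median change of -4.77 points beside -0.686 over all genes.

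**Figure D4:**
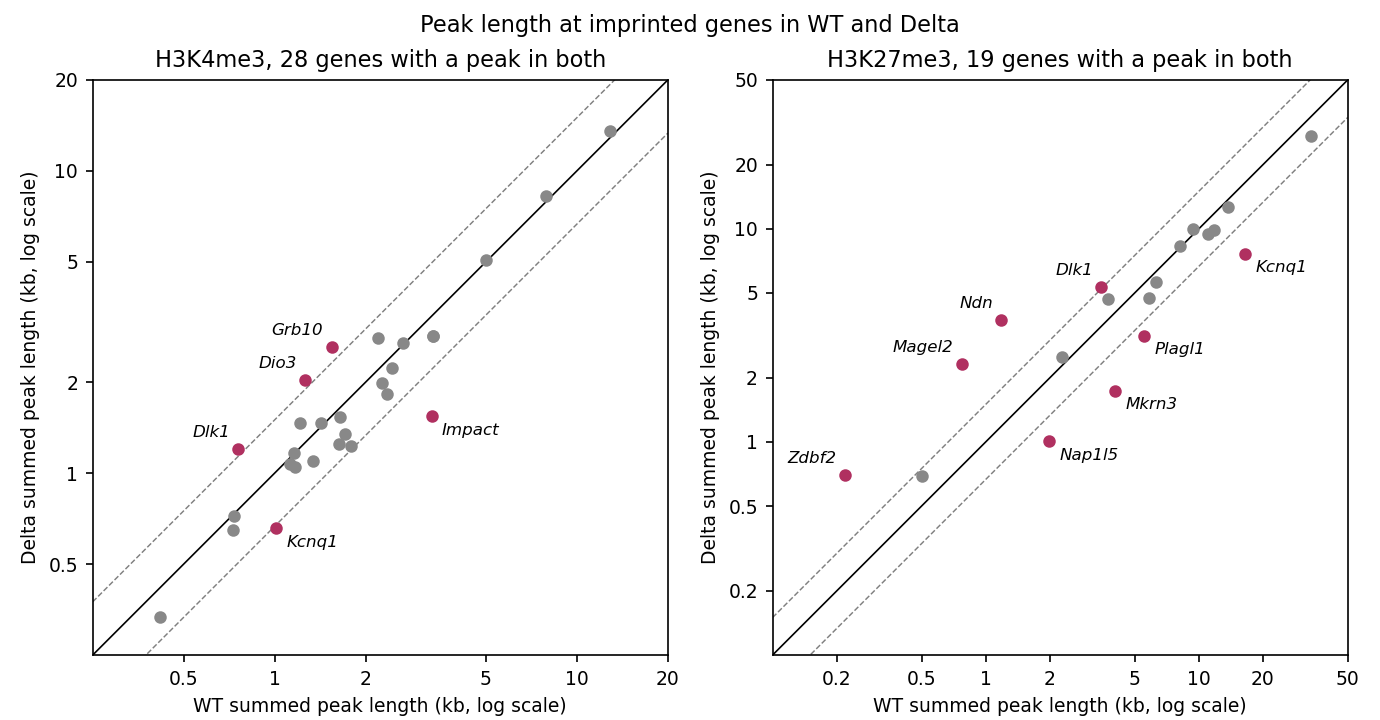
Summed peak length at imprinted genes in WT (x axis, kb, log scale) and Delta (y axis, kb, log scale) for H3K4me3 (28 genes) and H3K27me3 (19 genes), 1 library per axis. The solid line marks equal lengths and the dashed lines 1.5-fold; named points lie at or beyond 1.5-fold, 5 for H3K4me3 and 8 for H3K27me3.

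H3K4me3 lengths differed less. The median log2 ratio was -0.12 over 28 imprinted genes and -0.11 over 15278 genes. Grb10 (1543 and 2612 bp), Dlk1 (758 and 1200 bp) and Dio3 (1264 and 2032 bp) were at least 1.5-fold longer in Delta (3.27% of all genes). All 3 also carried H3K27me3 and H2AK119ub in both genotypes. So did Igf2, Phlda2, Ascl2 and Rasgrf1, whose H3K4me3 lengths were within 1.5-fold. Kcnq1 (1012 and 657 bp) and Impact were at least 1.5-fold shorter (10.1%). The Dio3 value rests on an added Delta peak 2480 bp from the start site, at the edge of the window, and without it the log2 ratio was -0.12 in place of 0.68. Under the stricter q limit neither Dlk1 nor Dio3 kept H3K4me3 in both genotypes, so neither gave a ratio. H3K4me3 was listed in WT alone at 2 imprinted genes (1.03% of all genes), Nnat and Meg3, and in Delta alone at 0 (0.611%). Meg3, a maternally expressed non-coding RNA of the Dlk1 domain, had 646 bp at fold 3.31 in WT, below both stricter limits, and its nearest Delta H3K4me3 peak lay 86.8 kb away at Dlk1.

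Among the imprinted domains measured end to end, H3K27me3 coverage differed most in the Kcnq1 domain on chromosome 7. Taken from 20 kb before Ascl2 to 20 kb beyond Phlda2, this span of 576 kb held 53 H3K27me3 peaks covering 140 kb in WT (24.2% of the span) and 24 peaks covering 75.9 kb in Delta (13.2%). In placenta the paternal copy of this domain is silenced from the Kcnq1ot1 promoter, which lies within Kcnq1, 189 kb beyond the first Kcnq1 start site. Between the Kcnq1ot1 start site and the far end of Kcnq1, over 131 kb, WT had 22 H3K27me3 peaks covering 26.3 kb and Delta had 2 covering 1.37 kb. On the other side, over 189 kb, WT had 18 peaks covering 29.6 kb and Delta had 9 covering 11.8 kb. The WT peaks of the 131 kb stretch were weak, with folds of 2.95 to 4.11. Of the 22, 18 lay below the median fold of the WT list, 3.71, and 2 had a fold of at least 4, against 0 of the 2 in Delta, so the contrast in this stretch rests on weak peaks. Before the Kcnq1ot1 start site 3 of the 18 WT peaks and 1 of the 9 Delta peaks had a fold of at least 4. Over the whole genome the H3K27me3 lists covered 30.4 Mb (WT) and 31.0 Mb (Delta). These lists were not scaled by the spike-in, so the totals do not measure the global level of the mark.

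The stronger domains at the start sites of this region were kept. Ascl2, a transcription factor needed in trophoblast, had 8126 bp of H3K27me3 in WT (fold 7.72) and 8323 bp in Delta (fold 8.60). Phlda2, which restrains placental growth, had 6281 bp (fold 7.69) and 5630 bp (fold 5.75). Cdkn1c, a cell cycle inhibitor of the same domain that is not among the 32, had 36023 bp (WT) and 15241 bp (Delta) at its start sites, with a further Delta peak of 18326 bp beside it. Slc22a18, a transporter, was the gene of the 32 with H3K27me3 (3740 and 4683 bp) and no H3K4me3 in WT (2.46% of all genes). Cd81 and Tssc4, at the other end, had H3K4me3 in both genotypes (2667 and 2702 bp at Cd81, 1170 and 1044 bp at Tssc4) and little or no H3K27me3.

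**Figure D5:**
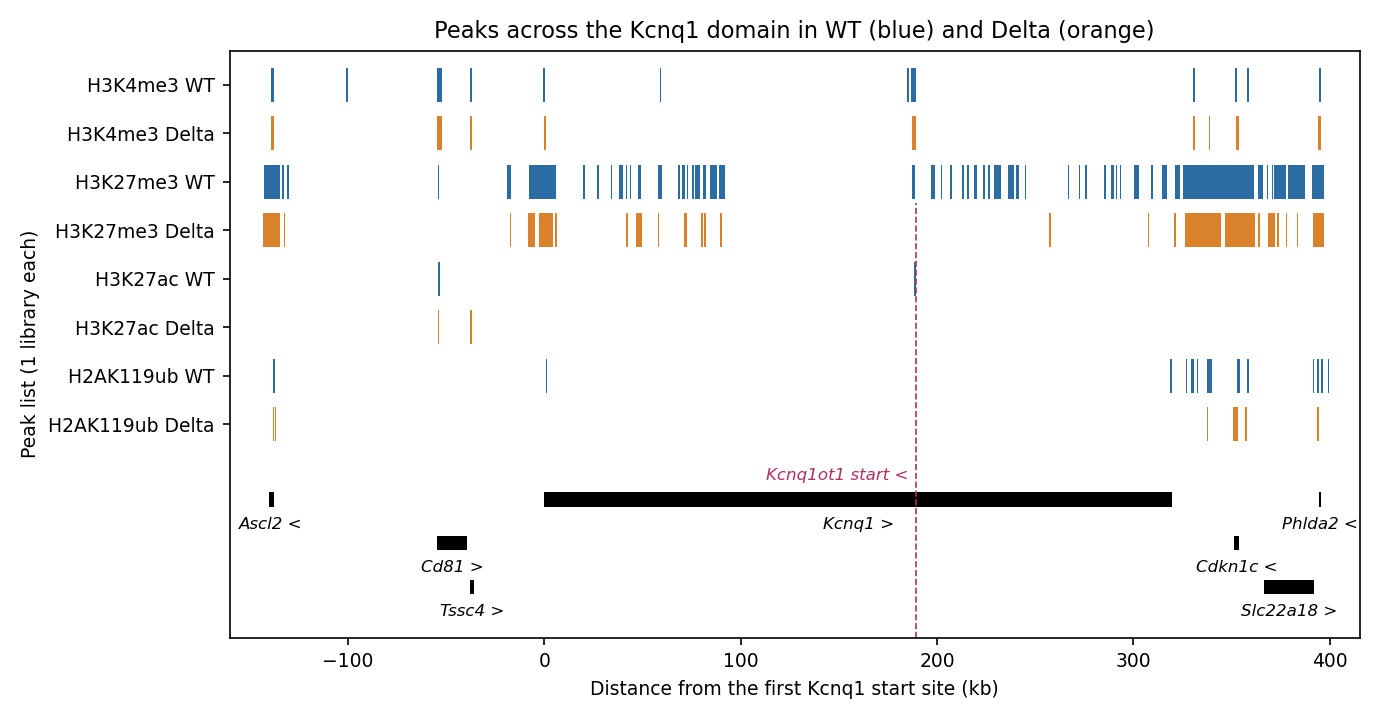
Peaks of 8 lists (rows, 1 library each) across the Kcnq1 domain, by distance in kb from the first Kcnq1 start site, in WT (blue) and Delta (orange); peaks under 0.8 kb are drawn 0.8 kb wide so that they can be seen. Black bars are genes with their direction of transcription, and the dashed line is the Kcnq1ot1 start site; to its right, the 131 kb to the end of Kcnq1 hold 22 H3K27me3 peaks in WT and 2 in Delta.

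The other domains showed smaller differences in covered length. Across the Snrpn domain (2522 kb) H3K27me3 covered 28.8 kb in WT and 23.6 kb in Delta, and its WT peaks all lay around Ndn, Magel2, Mkrn3 and Peg12 rather than at Snrpn. Peg12, a paternally expressed gene at the end of this domain, had 5868 and 4726 bp. Across the Dlk1-Dio3 domain (868 kb) it covered 29.8 and 33.8 kb, and across the Igf2-H19 domain (131 kb) 12.5 and 11.2 kb. The Peg3 domain (328 kb) held 1 H3K27me3 peak in WT and 0 in Delta, and the Peg10-Sgce domain (126 kb) held none in either genotype. H19, the maternally expressed non-coding RNA next to Igf2, had H3K4me3 alone (1713 and 1349 bp). Zim1, a zinc finger gene beside Peg3, also had H3K4me3 alone (417 and 334 bp).

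H2AK119ub covered less sequence in Delta at 6 of the 7 imprinted genes that carried it in both genotypes, in lists that differed in the same way over all genes. All 10 genes with H2AK119ub in WT also had H3K27me3 and H3K4me3 there. The mark was listed in WT alone at Kcnq1 (556 bp), Gnas (3087 bp) and Igf2r (544 bp), and in Delta alone at 0 genes, where 4.26% and 0.686% of all genes were. These 3 peaks were absent from the stricter lists. Of the genes with the mark in WT, 30.0% of the 10 imprinted genes had none in Delta, against 53.8% of 2541 genes. At the 7 genes with the mark in both genotypes the median log2 ratio was -1.56 against -0.46 over 1174 genes. At least 1.5-fold shorter were Grb10 (9166 and 737 bp), Igf2 (6516 and 1482 bp), Dio3 (6070 and 494 bp) and Rasgrf1 (704 and 238 bp), or 4 of 7 where 46.0% of all genes were, a share near the background.

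Phlda2 (1343 and 918 bp) and Ascl2 (630 and 586 bp) differed by less than 1.5-fold. Dlk1 was longer in Delta (216 and 625 bp), as were 20% of all genes. At Grb10, Igf2 and Dio3 the H3K27me3 domain stayed within 1.5-fold of its WT length. With a −log10 q of at least 3, 1 imprinted gene in WT (Phlda2) and 0 in Delta kept an H2AK119ub peak, and 0.246% and 0.137% of all genes did. With a fold of at least 4 the order of the genotypes turned, to 2 imprinted genes in WT and 4 in Delta, as it did over all genes (1.18% and 2.45%). The WT list as a whole also held more peaks, 4922 against 2388, and the part of that gap in these differences was not tested.

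H3K27ac was listed in both genotypes at 4 imprinted genes. Impact had 2368 bp (WT) and 966 bp (Delta), Gnas, which encodes the stimulatory G protein subunit, had 630 and 797 bp, Zdbf2 had 419 and 1242 bp, and Cd81 had 340 and 541 bp. Cd81 and Zdbf2 were at least 1.5-fold longer in Delta (23.5% of all genes) and Impact at least 1.5-fold shorter (19%). In Delta alone the mark was at Tssc4 (403 bp, fold 4.55), Igf2r, the receptor that clears IGF2 (247 bp, fold 4.49), and Slc38a4, an amino acid transporter (620 bp, fold 4.76), where 5.11% of all genes were. These 3 calls held under all 5 alternative settings of window, start site and peak strength. In WT alone the mark was at Peg3 (200 bp, fold 3.98), where 2.76% of all genes were, and this peak was lost in the stricter lists.

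At Igf2r the 4 marks differed in different directions. H3K27ac appeared in Delta, H2AK119ub (544 bp in WT) did not, and H3K27me3 was of similar length (2285 and 2512 bp) while its fold fell from 4.84 to 3.20, or from percentile 74.0 to 12.6 of its list. Its H3K4me3 measured 1630 and 1252 bp. Slc38a4 and Zdbf2 both combined strong H3K4me3 (percentile 82.1 in both genotypes for Slc38a4, and 93.4 and 86.4 for Zdbf2) with short, weak H3K27me3. Gnas had the longest H3K4me3 of the 32 genes, 12840 bp (WT) and 13569 bp (Delta) over several promoters, with 10994 and 9464 bp of H3K27me3. Rasgrf1, an exchange factor for RAS, kept all 3 of its marks with 9346 and 9935 bp of H3K27me3.

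By expressed copy, H3K27me3 was listed in WT at 14 of 20 paternally expressed genes and 7 of 11 maternally expressed genes. In Delta it was at 14 and 6, where 28.7% (WT) and 27% (Delta) of all genes had it. By DMR, it was at 4 of the 10 genes with a promoter in a maternally methylated germline DMR in each genotype. That count is not far above the all-gene share, and the genes were not the same. Plagl1 and Nap1l5 had the mark in both genotypes, Peg3 and Nnat in WT alone, and Mest and Snrpn in Delta alone. The Mest peak lay at an upstream start site. The mark was also at 4 of 4 genes with a germline DMR elsewhere in the gene, and at 14 of the other 18 in WT. H2AK119ub was listed in WT at 0 of the 10, 4 of the 4 and 6 of the other 18, where 7.92% of all genes had it, so that 0 of 10 is near the background. A list of 47 further imprinted genes, named from general knowledge, gave 34 with H3K4me3 and 24 with H3K27me3 in WT, and 33 and 18 in Delta. Of all genes, 48.7% (WT) and 48.3% (Delta) had H3K4me3, and 28.7% and 27% had H3K27me3. In that list H3K27me3 was in WT alone at 7 genes and in Delta alone at 1, where 5.56% and 3.93% of all genes were. In order of symbol, the first 6 of those called in 1 genotype for any mark were Ampd3, Ano1, Begain, Blcap, Commd1 and Ddc, of which Blcap (2001 bp) and Commd1 (1094 bp) had H3K27me3 in WT alone and Ampd3 (290 bp), Ano1 (2500 bp), Begain (977 bp) and Ddc (592 bp) had H2AK119ub in WT alone.

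Genes that establish or keep imprints were measured as a group of 20. H3K4me3 was listed at 18 of them in WT and 17 in Delta, H3K27ac at 10 and 12, H3K27me3 at 10 and 7, and H2AK119ub at 1 and 0. The all-gene shares in WT and Delta were 48.7% and 48.3% for H3K4me3 and 15.9% and 18.2% for H3K27ac. They were 28.7% and 27% for H3K27me3, and 7.92% and 4.35% for H2AK119ub. The H2AK119ub counts of 1 and 0 are therefore near the background. In Delta alone H3K27ac was listed at Dnmt3a (199 bp) and Tet2 (921 bp), where 5.11% of all genes were. In WT alone H3K27me3 was at Ezh2 (442 bp), Setdb1 (309 bp) and Smchd1 (437 bp), where 5.56% of all genes were. In WT alone H2AK119ub was at Dnmt3a (267 bp), where 4.26% of all genes were. Dnmt3a encodes a DNA methyltransferase that sets imprints in germ cells, Tet2 an enzyme that oxidises methylated DNA, Setdb1 a histone methyltransferase recruited with ZFP57, and Smchd1 a chromatin protein that acts at several imprinted clusters. Zfp445, which acts alongside ZFP57, had H3K4me3 in WT (584 bp) and not in Delta, as did 1.03% of all genes.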

How the data were processed

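Chromatin of sorted day 4 cells was profiled for 4 marks in 2 genotypes. Of 10 labelled libraries, 8 had peak lists, and the 2 inputs were not analysed here. According to the study's methods and the submitters' processing notes, the authors trimmed reads with Trim Galore, aligned them to mm9 with Bowtie and called broad peaks per library with MACS2 (2.0.10) against input. The spike-in scaled tag densities and not the peak calls. As deposited, each peak has a score derived from its q-value, a fold enrichment over background, and the −log10 of its p-value and q-value. Read depth is not in the lists, so the precision of single peaks is unknown.

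Peaks were assigned to start sites of GENCODE M1 genes (NCBIM37) within 2500 bp in Python (3.11.15), checked with bedtools (2.31.1) and tested on simulated data, and plotted with matplotlib (3.10.9). Lengths of peaks reaching a start site were summed, and 1.5-fold was taken as a difference. The members and lists were chosen with earlier results of these data known. Genes were named if a call differed, if an H3K4me3 or H3K27me3 length differed by 1.5-fold, or if H2AK119ub or H3K27ac was listed, with at most 6 per other list in symbol order. Other names given were chosen after their values were seen, as were the ranking by fold, the placing of Kcnq1 among genes with a DMR within them, the leaving out of Usp29 and the split of the Kcnq1 domain at Kcnq1ot1. Alternatives were windows of 1000 and 5000 bp, −log10 q of at least 3, fold of at least 4, outermost start sites, and other backgrounds. All printed sequences were read from NCBIM37, and the Kcnq1ot1 and Usp29 positions come from exact matches of RefSeq promoters.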

Additional observations from a re-analysis of the deposited data

How the results depend on the processing

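Of 83 recomputed values, 59 stayed within the limits set and 24 moved. With peaks of −log10 q of at least 3, H3K27ac in WT went from 5 to 3 genes, and H2AK119ub from 10 to 1 in WT and from 7 to 0 in Delta. With a fold of at least 4 these became 3, 2 and 4 genes, so that H2AK119ub was then at more genes in Delta than in WT, and H3K4me3 with H3K27me3 went from 21 to 12 genes in WT and from 20 to 12 in Delta, where 11.5% and 11.8% of all genes had both. The median log2 length ratio of H3K4me3 was -0.13 with a 1000 bp window and -0.16 at −log10 q of at least 3. That of H3K27me3 was 0.00 for the part inside the window, -0.14 at 1000 bp and -0.01 without chromosome 7. Against genes with CpG-rich start sites the background shares for WT and Delta became 97.5% and 97.3% (H3K4me3), 56.0% and 52.0% (H3K27me3), 39.2% and 44.3% (H3K27ac), 13.6% and 8.05% (H2AK119ub), and 55.1% and 51.0% (both H3K4me3 and H3K27me3). Over the 28 imprinted genes with H3K4me3 in both genotypes the median change of the H3K4me3 percentile was -3.14 points. Ranked among peaks at start sites only it was -1.56 points. For the 8 genes with promoters in maternally methylated germline DMRs these 2 values were -19.8 and -18.2 points. The cause was not tested. Of 14 calls in 1 genotype alone, 4 were the same under all 5 alternatives (H3K27me3 at Nnat, H3K27ac at Tssc4, Igf2r and Slc38a4). Peak lists hold no values below their limit, so an absent peak can be a weak one. No paired analysis was possible because each mark had 1 library per genotype and no result came from a test.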
